A study of Capra hircus with 6 samples.

Results

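The genes described here encode ion channels together with pannexins and connexins, the proteins that form large membrane pores and cell-to-cell junctions. A gene was included when its symbol began with KCN, CACN or CLCN, or consisted of ANO, TRPC, TRPM, TRPV, PANX, GJA, GJB or GJC followed by a number, and when the deposited table gave read counts for it. This rule found 141 of the 16599 genes with values, and a further 35 matching symbols had blank entries that were not used here. TRPC4AP, which encodes a protein that binds TRPC4 and is not itself a channel, was not included. RNA was sequenced from the goat (Capra hircus) cell line mGSCs-I-SB, which the labels call spermatogonial stem cells, in 3 lines with 2 libraries each. The shCON line has the genotype WT in the labels and carried a control hairpin RNA, the shUCHL1 line carried hairpin RNA against UCHL1 (a ubiquitin hydrolase) and the shHSPA8 line carried hairpin RNA against HSPA8 (a constitutive chaperone). All 3 lines came from the same cell line and grew in medium with 10% fetal bovine serum. How many hairpins or clones a line stands for is not said, nor whether its libraries are separate cultures. The p-values therefore reflect the spread of these library pairs alone, and that spread may be technical.

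Total counts ranged from 1.57e+07 to 1.64e+07 per library. Levels of a gene are given as CPM, read counts relative to the TMM-scaled library size, with replicate 1 before replicate 2 of each line. The targeted genes were checked first. UCHL1 measured 405 and 451 CPM in shCON, 94.3 and 97.7 CPM in shUCHL1 and 386 and 334 CPM in shHSPA8, and HSPA8 measured 4016 and 4112 CPM in shCON, 5252 and 5345 CPM in shUCHL1 and 2631 and 2528 CPM in shHSPA8. Each targeted gene was lower in its own line than in shCON, UCHL1 4.46-fold and HSPA8 1.58-fold (edgeR adjusted p = 1.13e-04 and 0.00126). The labelled cell type was checked against 24 markers of spermatogonia and germ cells, of which 14 had values and 10 were tested. KIT, POU5F1, PIWIL2 and SYCP3 had 3 or fewer counts each over the 6 libraries, DDX4 measured 1.01 and 0.428 CPM in shCON, 1.95 and 1.80 CPM in shUCHL1 and 0.948 and 1.29 CPM in shHSPA8, and ZBTB16, NANOS2, SALL4 and DAZL were not analysed here. Some markers on the list were well above these, among them ITGA6, 96.6 and 68.3 CPM in shCON, 63.8 and 59.2 CPM in shUCHL1 and 102 and 121 CPM in shHSPA8, and THY1, 140.2 and 169 CPM in shCON, 61.5 and 65.8 CPM in shUCHL1 and 148 and 135 CPM in shHSPA8. In shUCHL1, 3 of the 10 tested were higher (RET, FOXO1 and ID4) and 2 lower (THY1 and UCHL1), and in shHSPA8, 2 were higher (FOXO1 and ID4), and the part of these changes in the results below was not tested. The fibroblast and myoid marker COL1A1 measured 7629 and 8919.7 CPM in shCON, 8901 and 9517 CPM in shUCHL1 and 10351 and 9538 CPM in shHSPA8.

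Potassium channels let potassium leave the cell and hold the membrane potential negative, while voltage-gated calcium channels and TRP channels admit calcium or sodium. Chloride channels, anoctamins and the CLC exchangers move chloride, protons or lipids across plasma and endosomal membranes. Pannexins release ATP and other small molecules to the outside, and connexins join neighbouring cells by gap junctions, which in the testis couple the somatic cells of the seminiferous tubule with each other and with germ cells.

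Most of these genes were weakly expressed. Of the 141, 62 passed the filter on low counts and entered the test over 12665 genes, and 79 did not. The untested genes had 1 to 37 counts summed over the 6 libraries, with a median of 3, and 40 of them had 3 or fewer. Per transcript length, in the authors' FPKM (fragments scaled to transcript length and library depth), the tested channel genes had a median mean level of 1.75 FPKM, against 11.8 FPKM over all genes tested. Only 10 of the 62 reached a mean of 10 FPKM and 24 were under 1 FPKM. GJA1, the most widely expressed connexin in mammalian tissues, stood far above the rest at a mean of 172 FPKM. It was followed by KCNK12, a tandem-pore potassium channel, at 37.0 FPKM, ANO10, an anoctamin of internal membranes, at 32.5 FPKM, and TRPV2, a calcium-permeable TRP channel, at 27.9 FPKM. KCNJ3, a subunit of G protein-gated inward rectifiers, came next at 18.7 FPKM. The voltage-gated potassium family had the most members, 28, but only 6 were tested, and its highest member, KCNA5, had a mean of 0.898 FPKM.

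**Figure D1:**
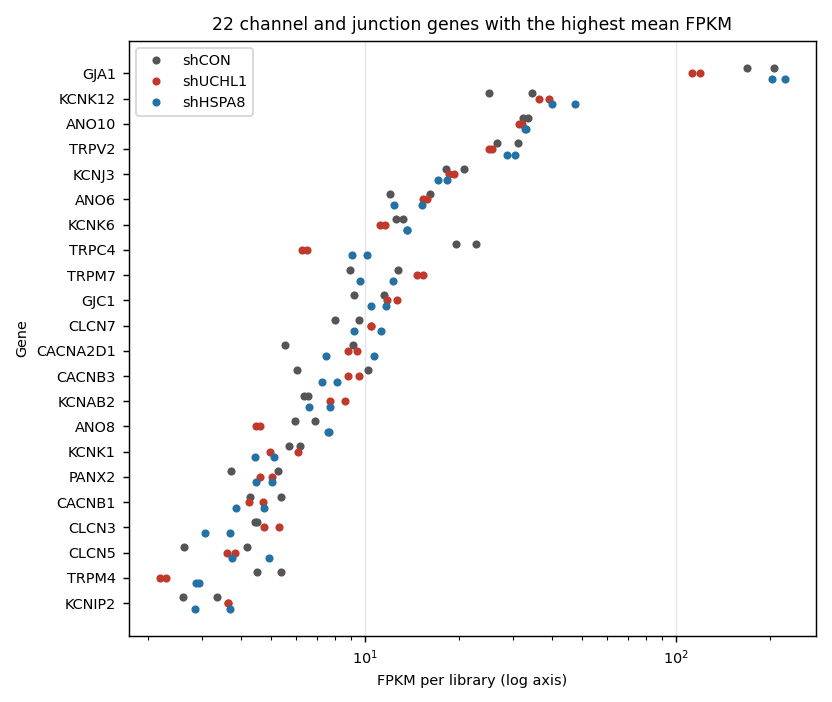
FPKM (horizontal log axis) of the 22 channel and junction genes with the highest means, with 1 point per library coloured by line. GJA1 lies above every other gene in all 6 libraries, and TRPC4 and TRPM4 are among the genes whose shCON points lie to the right of both knockdown lines.

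With UCHL1 knocked down, 19 of the 62 tested genes changed, 9 higher and 10 lower than in shCON, and 17 of the 19 differed at least 2-fold. A gene is called changed where the edgeR quasi-likelihood test gave an adjusted p under 0.05 over all genes tested. That was 30.6% of the channel genes, beside 15.7% of all genes tested (8.54% higher and 7.15% lower). With HSPA8 knocked down, 16 of 62 changed, 12 higher and 4 lower, which was 25.8% beside 14.7% of all genes (8.66% higher and 6.02% lower). The median size of the log2 fold change, without its sign, was 0.35 for channel genes and 0.20 for all genes in shUCHL1, and 0.35 and 0.21 in shHSPA8. The signed medians were 0.12 and 0.07, beside 0.01 and -0.003 over all genes. The genes that changed were mostly weakly expressed, with a median of 1.34 FPKM in shUCHL1 and 1.46 FPKM in shHSPA8, against 2.82 and 2.65 FPKM for those not called. These counts cover only the genes that passed the filter, and a gene that is low in shCON can pass it through a knockdown line in which it is high. A gene that is low in both knockdown lines can likewise pass it through shCON alone. Both comparisons use the same 2 shCON libraries. The count in shUCHL1 was 12 without shUCHL1 replicate 1 and 10 without replicate 2, and the count in shHSPA8 was 9 without shHSPA8 replicate 2. In these bulk libraries, fewer cells of a kind and less RNA per cell cannot be told apart.

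**Figure D2:**
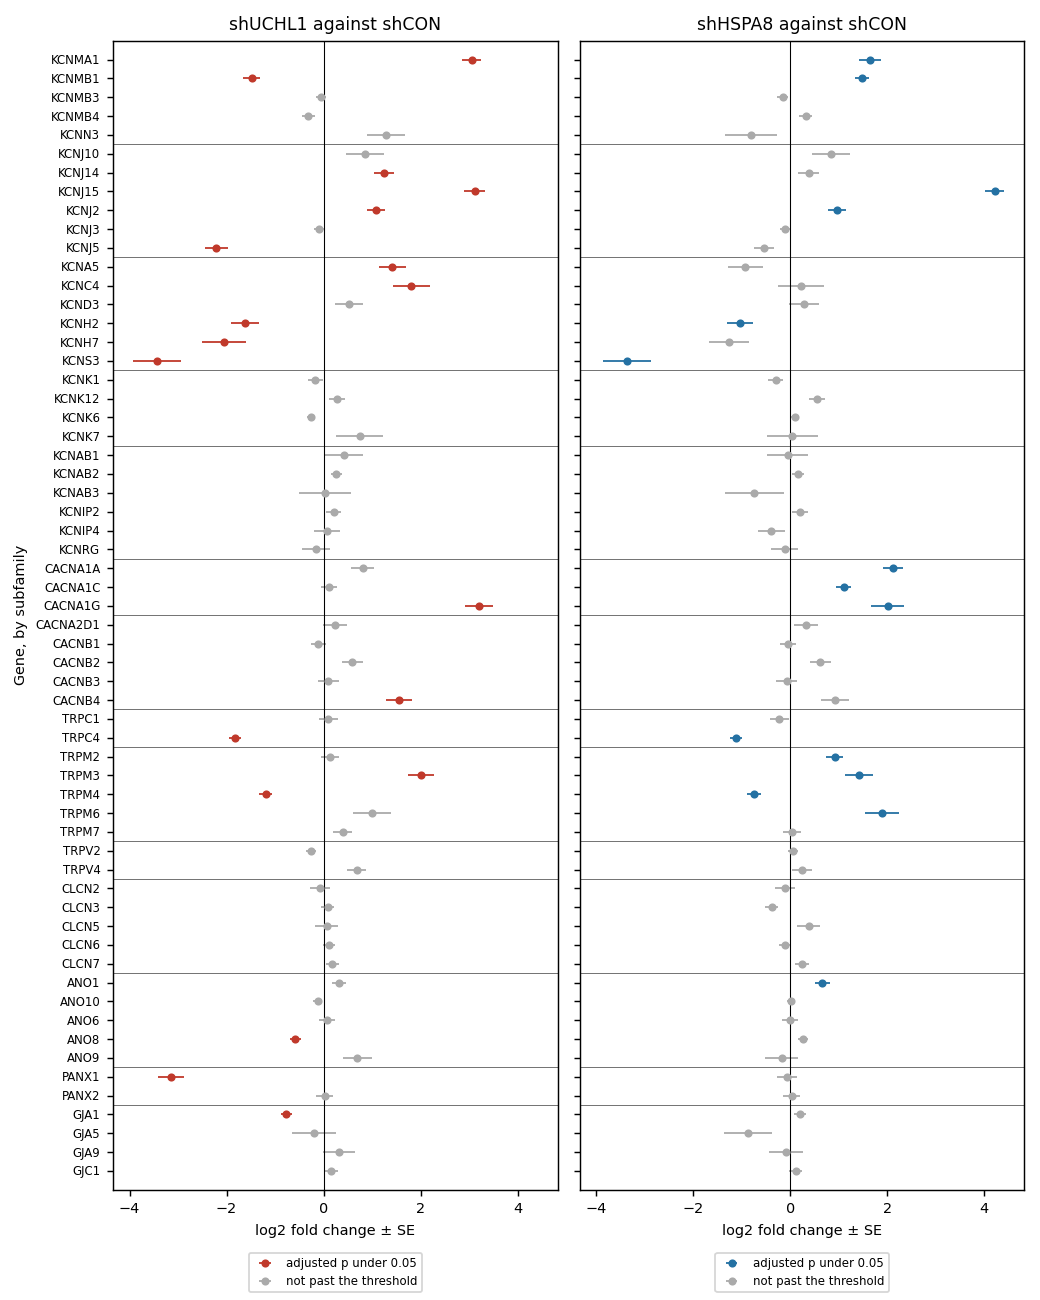
Log2 fold change (horizontal axis) with its SE for the tested genes reported here, in shUCHL1 and in shHSPA8, each against shCON, with coloured points past an adjusted p of 0.05. The furthest points belong to KCNJ15, CACNA1G and KCNMA1 on the higher side and to KCNS3 and PANX1 on the lower side; KCNS3 rests on 3 counts per knockdown line and its fitted value is not a measured fold.

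The subunits of the BK channel, the large-conductance potassium channel opened by calcium and voltage, moved apart with UCHL1 knocked down. KCNMA1, which encodes the pore, measured 1.46 and 1.10 CPM in shCON, 9.96 and 11.3 CPM in shUCHL1 and 4.24 and 3.75 CPM in shHSPA8. The shUCHL1 libraries were the highest, the shHSPA8 libraries intermediate and the shCON libraries lowest, with no overlap. KCNMA1 was 8.27-fold higher (log2 fold change 3.05, SE 0.20, edgeR adjusted p = 2.98e-04) in shUCHL1 and 3.12-fold higher (log2 fold change 1.64, SE 0.23, edgeR adjusted p = 0.00368) in shHSPA8 than in shCON. KCNMB1, the accessory beta subunit that raises the calcium sensitivity of the channel and is typical of smooth muscle, measured 5.64 and 6.55 CPM in shCON, 2.26 and 2.10 CPM in shUCHL1 and 16.6 and 17.6 CPM in shHSPA8. Here shUCHL1 was the lowest line and shHSPA8 the highest, again with no overlap. KCNMB1 was 2.79-fold lower (log2 fold change -1.48, SE 0.17, edgeR adjusted p = 0.00223) in shUCHL1 and 2.80-fold higher (log2 fold change 1.48, SE 0.14, edgeR adjusted p = 7.13e-04) in shHSPA8. Between the knockdown lines, shUCHL1 had 2.65-fold more KCNMA1 and 7.81-fold less KCNMB1 than shHSPA8 (edgeR adjusted p = 0.00347 and 1.89e-04). All of these calls held in each of the 13 alternatives run.

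Per length, KCNMA1 stood at 0.28 and 0.26 FPKM in shCON, 2.83 and 2.74 FPKM in shUCHL1 and 1.02 and 0.91 FPKM in shHSPA8, and KCNMB1 at 0.97 and 1.15 FPKM in shCON, 0.41 and 0.38 FPKM in shUCHL1 and 2.86 and 3.0 FPKM in shHSPA8. The ratio of KCNMB1 to KCNMA1 in FPKM was 3.46 and 4.42 in shCON, 0.145 and 0.139 in shUCHL1 and 2.80 and 3.30 in shHSPA8. The accessory subunit was thus the more abundant transcript in all 4 shCON and shHSPA8 libraries and the less abundant one in both shUCHL1 libraries. The other accessory subunits did not pass the test against shCON. KCNMB4, a subunit known mainly from brain, measured 10.4 and 11.4 CPM in shCON, 8.68 and 8.87 CPM in shUCHL1 and 14.4 and 12.8 CPM in shHSPA8, and KCNMB3, whose fractional counts may be shared with other genes, had a log2 fold change of -0.06 in shUCHL1 and -0.16 in shHSPA8 (edgeR adjusted p = 0.756 and 0.368). KCNN3, a small-conductance calcium-activated channel, was near the limit of detection at 0.253 and 0.428 CPM in shCON, 0.794 and 0.899 CPM in shUCHL1 and 0.190 and 0.194 CPM in shHSPA8.

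KCNMB1 is a smooth-muscle gene, so markers of myoid cells and fibroblasts are set beside it. All 11 listed markers were tested and none was at 0. In shUCHL1, 6 of the 11 were lower (ACTA2, CNN1, DES, LMOD1, MYLK and TAGLN, all contractile or muscle filament genes) and 2 were higher (DCN and LUM, matrix proteoglycans). In shHSPA8, DCN, LUM and MYLK were higher and LMOD1 was lower. CNN1, calponin, measured 10.8 and 14.3 CPM in shCON, 1.10 and 0.600 CPM in shUCHL1 and 20.9 and 16.4 CPM in shHSPA8, so that it was lowest in shUCHL1, as KCNMB1 was. MYLK, the myosin light chain kinase, measured 57.7 and 53.4 CPM in shCON, 27.8 and 27.8 CPM in shUCHL1 and 79.6 and 85.4 CPM in shHSPA8, the same order of lines as for KCNMB1. MYLK was the only listed marker called in the same directions as KCNMB1 in both knockdown lines. LMOD1 was lower in both, DCN and LUM were higher in both, and ACTA2, CNN1, DES and TAGLN were not called in shHSPA8. Summed over the list, the levels were 11739 and 13683 CPM in shCON, 11706 and 12406 CPM in shUCHL1 and 15033 and 13843 CPM in shHSPA8. COL1A1, whose levels are given above, made up most of the sum in every library. The sums therefore mainly follow COL1A1 and do not show the fall of the contractile and muscle filament genes in shUCHL1. The part of these genes in the KCNMB1 result was not tested.

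**Figure D3:**
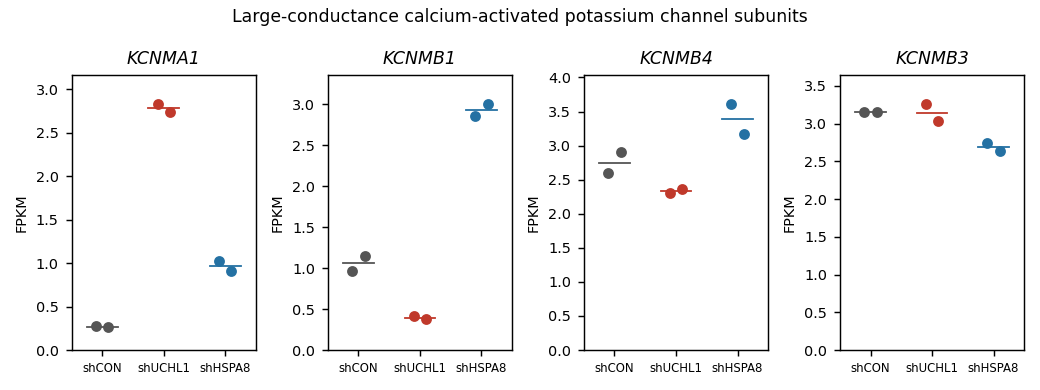
FPKM of the BK channel pore gene KCNMA1 and the accessory subunit genes KCNMB1, KCNMB4 and KCNMB3, with 2 library points per line and a bar at their mean. KCNMA1 is highest in shUCHL1, and KCNMB1 is lowest there and highest in shHSPA8.

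Among the inward rectifiers, which pass potassium more easily into the cell than out and set the resting potential, 3 of 6 tested genes rose and 1 fell in shUCHL1, and 2 rose in shHSPA8. Over all genes tested, 8.54% rose and 7.15% fell in shUCHL1, and 8.66% rose in shHSPA8. KCNJ15, an inward rectifier known from kidney and other epithelia, measured 1.01 and 0.673 CPM in shCON, 7.45 and 7.19 CPM in shUCHL1 and 15.7 and 15.7 CPM in shHSPA8. Both knockdown lines lay above shCON without overlap, and shHSPA8 lay above shUCHL1. KCNJ15 was 8.64-fold higher (log2 fold change 3.11, SE 0.21, edgeR adjusted p = 3.02e-04) in shUCHL1 and 18.5-fold higher (log2 fold change 4.21, SE 0.20, edgeR adjusted p = 5.11e-05) in shHSPA8, the largest rise of any channel gene tested in that comparison. KCNJ2, the classical strong inward rectifier of heart and skeletal muscle, measured 8.86 and 6.86 CPM in shCON, 16.3 and 16.8 CPM in shUCHL1 and 13.4 and 17.4 CPM in shHSPA8. Its level was 2.10-fold higher (log2 fold change 1.07, SE 0.18, edgeR adjusted p = 0.00936) in shUCHL1 and 1.96-fold higher (log2 fold change 0.97, SE 0.18, edgeR adjusted p = 0.0136) in shHSPA8. The first call was lost without shUCHL1 replicate 1 or 2 (adjusted p = 0.0613 and 0.0703), and the other without shHSPA8 replicate 2 (adjusted p = 0.0723).

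KCNJ14, another strong inward rectifier, measured 2.15 and 2.94 CPM in shCON, 5.68 and 6.42 CPM in shUCHL1 and 3.22 and 3.43 CPM in shHSPA8. Only its rise in shUCHL1 passed the test, where it was 2.37-fold higher (log2 fold change 1.24, SE 0.20, edgeR adjusted p = 0.00790), and that call was lost without shUCHL1 replicate 1 or 2 (adjusted p = 0.0510 and 0.0802). In shHSPA8 its value was not past the threshold (log2 fold change 0.38, SE 0.22, edgeR adjusted p = 0.300). KCNJ5 and KCNJ3 encode partner subunits of the G protein-gated inward rectifier that slows the heart beat. KCNJ5 measured 2.98 and 3.24 CPM in shCON, 0.733 and 0.600 CPM in shUCHL1 and 2.15 and 2.13 CPM in shHSPA8, lowest in both shUCHL1 libraries, and was 4.63-fold lower (log2 fold change -2.21, SE 0.24, edgeR adjusted p = 0.00183) there. In shHSPA8 its log2 fold change was -0.54 (SE 0.20, edgeR adjusted p = 0.127). Its partner KCNJ3, the highest inward rectifier per length, measured 92.0 and 79.5 CPM in shCON, 81.4 and 78.5 CPM in shUCHL1 and 76.2 and 83.1 CPM in shHSPA8, and the lines overlapped (log2 fold change -0.10 in shUCHL1 and -0.11 in shHSPA8, edgeR adjusted p = 0.594 and 0.570). KCNJ10, best known from glia, was not called in either line (log2 fold change 0.84 and 0.85, edgeR adjusted p = 0.205 and 0.205).

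Of the 6 tested voltage-gated potassium channel genes, 2 rose and 3 fell in shUCHL1, and 2 fell in shHSPA8, all from levels of a few CPM or less. Over all genes tested, 8.54% rose and 7.15% fell in shUCHL1, and 6.02% fell in shHSPA8. KCNA5, a delayed rectifier of heart and vascular muscle, measured 1.27 and 2.02 CPM in shCON, 4.15 and 4.68 CPM in shUCHL1 and 1.07 and 0.647 CPM in shHSPA8. It was 2.67-fold higher (log2 fold change 1.42, SE 0.28, edgeR adjusted p = 0.0158) in shUCHL1, where both libraries lay above all others. That call was lost without shUCHL1 replicate 1 or 2 (adjusted p = 0.0842 and 0.117). KCNC4, a fast-deactivating channel, measured 0.443 and 0.428 CPM in shCON, 1.16 and 1.92 CPM in shUCHL1 and 0.506 and 0.517 CPM in shHSPA8. It passed the filter on low counts only through the shUCHL1 libraries, in which it was high. The KCNC4 level was 3.49-fold higher (log2 fold change 1.81, SE 0.38, edgeR adjusted p = 0.0201) in shUCHL1, a call lost without shCON replicate 1 or 2 (adjusted p = 0.0540 and 0.0732), without shUCHL1 replicate 2 (adjusted p = 0.161) and with DESeq2 (adjusted p = 0.0839). In shHSPA8 neither was called (log2 fold change -0.93 for KCNA5 and 0.23 for KCNC4, edgeR adjusted p = 0.142 and 0.810).

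Those that fell belong to the ether-a-go-go family and to the silent subunits. KCNH2, the hERG channel that repolarises heart muscle, measured 3.17 and 3.80 CPM in shCON, 0.916 and 1.32 CPM in shUCHL1 and 2.02 and 1.36 CPM in shHSPA8. It was highest in shCON, with no overlap, and was 3.10-fold lower (log2 fold change -1.63, SE 0.29, edgeR adjusted p = 0.0108) in shUCHL1 and 2.05-fold lower (log2 fold change -1.04, SE 0.27, edgeR adjusted p = 0.0449) in shHSPA8. The call in shUCHL1 was lost without shUCHL1 replicate 1 or 2 (adjusted p = 0.103 and 0.050002). The call in shHSPA8 was lost without shCON replicate 2 (adjusted p = 0.102), without shUCHL1 replicate 1 or 2 (adjusted p = 0.0774 and 0.0779), without shHSPA8 replicate 1 or 2 (adjusted p = 0.0690 and 0.212), with DESeq2 (adjusted p = 0.124), with no filter on low counts (adjusted p = 0.0502) and in a fit of only the 4 libraries compared (adjusted p = 0.0739). KCNH7, a relative of KCNH2 known from neurons, measured 0.886 and 0.673 CPM in shCON, 0.183 and 0.180 CPM in shUCHL1 and 0.379 and 0.259 CPM in shHSPA8. Its shUCHL1 level, a mean of 0.04 FPKM, was near the limit of detection, so the size of its fold is uncertain. KCNH7 passed the filter on low counts only through shCON, in which it was high. The KCNH7 level was 4.15-fold lower (log2 fold change -2.05, SE 0.45, edgeR adjusted p = 0.0236) in shUCHL1, a call lost without shCON replicate 1 or 2 (adjusted p = 0.0794 and 0.0506), without shUCHL1 replicate 1 or 2 (adjusted p = 0.164 and 0.160) and with DESeq2 (adjusted p = 0.179). KCNS3 encodes a subunit that forms no channel alone and modifies others. It had 17 and 17 counts in shCON, 2 and 1 in shUCHL1 and 2 and 1 in shHSPA8, and so passed the filter only through shCON. The ratio of shCON to shUCHL1 was 11.7, with a 95% exact interval of 3.67 to 59.3, and that of shCON to shHSPA8 was 11.04, with an interval of 3.47 to 56.2; the intervals cover counting error only. The edgeR adjusted p was 0.00456 in shUCHL1 and 0.00461 in shHSPA8, and the former was 0.0586 without shUCHL1 replicate 2.

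edgeR called 0 of the 4 tested tandem-pore channels, which carry background potassium leak, against shCON in either line, with 1 in each line at an unadjusted p under 0.05 (KCNK6 in shUCHL1 and KCNK12 in shHSPA8). It also called 0 of the 6 tested potassium channel auxiliary genes, with 0 at an unadjusted p under 0.05 and 0 by DESeq2. KCNK12, the most abundant potassium channel transcript per length, gave a log2 fold change of 0.27 in shUCHL1 and 0.56 in shHSPA8 (edgeR adjusted p = 0.334 and 0.0658), and DESeq2 called it in shHSPA8 (adjusted p = 0.0279). Without shCON replicate 2 it passed in both lines (adjusted p = 0.0448 and 0.00846). KCNK6 measured 63.9 and 60.0 CPM in shCON, 52.5 and 50.7 CPM in shUCHL1 and 65.6 and 66.3 CPM in shHSPA8, with shUCHL1 below the other lines (log2 fold change -0.26 in shUCHL1, edgeR adjusted p = 0.0979). KCNAB2, a beta subunit that travels with Shaker-type channels, had the highest level of the auxiliary genes, 7.28 FPKM, and log2 fold changes of 0.26 and 0.16 (edgeR adjusted p = 0.203 and 0.422).

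Of the 8 calcium channel pore genes, 3 were tested. All 3 rose in shHSPA8 and 1 of them rose in shUCHL1, beside 8.66% and 8.54% of all genes tested. CACNA1G, a T-type channel that opens near the resting potential, measured 0.380 and 0.306 CPM in shCON, 3.48 and 2.94 CPM in shUCHL1 and 1.33 and 1.49 CPM in shHSPA8. Both knockdown lines lay above shCON, shUCHL1 the further. With 6 and 5 counts in shCON, under the minimum of 10, CACNA1G passed the filter only through the knockdown lines. CACNA1G was 9.19-fold higher (log2 fold change 3.20, SE 0.29, edgeR adjusted p = 8.70e-04) in shUCHL1 and 4.04-fold higher (log2 fold change 2.01, SE 0.34, edgeR adjusted p = 0.00873) in shHSPA8, the latter call lost without shHSPA8 replicate 2 (adjusted p = 0.0532). CACNA1A, the P/Q-type channel of nerve terminals, measured 2.79 and 1.84 CPM in shCON, 4.34 and 3.72 CPM in shUCHL1 and 10.4 and 9.63 CPM in shHSPA8. It was 4.34-fold higher (log2 fold change 2.12, SE 0.22, edgeR adjusted p = 9.64e-04) in shHSPA8, while its value in shUCHL1 did not pass the test (log2 fold change 0.80, SE 0.23, edgeR adjusted p = 0.0616). The value in shUCHL1 passed with library size scaling (adjusted p = 0.0434) and without shCON replicate 1 (adjusted p = 0.0231). CACNA1C, the L-type channel of heart and smooth muscle, measured 13.6 and 10.5 CPM in shCON, 12.5 and 13.5 CPM in shUCHL1 and 24.1 and 27.6 CPM in shHSPA8. Only the shHSPA8 libraries stood apart, 2.14-fold higher (log2 fold change 1.10, SE 0.16, edgeR adjusted p = 0.00407) than shCON, while shUCHL1 overlapped shCON (log2 fold change 0.11, SE 0.16, edgeR adjusted p = 0.701). Summed per length, these channel pores, with untested ones included, reached 2.05 and 1.60 FPKM in shCON, 2.64 and 2.61 FPKM in shUCHL1 and 4.37 and 4.71 FPKM in shHSPA8.

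CACNA1A and CACNA1G are best known from neurons, and 6 neuronal markers are set beside them. All 6 had values and 3 were tested. RBFOX3 and SYP were at 0 to 0.13 CPM in every library, STMN2 was not tested, SYN1 and SNAP25 were not called in either line, and NEFL, a neurofilament gene, was higher in both knockdown lines at 0.253 and 0.184 CPM in shCON, 2.99 and 2.64 CPM in shUCHL1 and 0.822 and 0.776 CPM in shHSPA8. The list summed to 15.8 and 17.6 CPM in shCON, 19.2 and 19.6 CPM in shUCHL1 and 18.1 and 16.7 CPM in shHSPA8.

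Of the 5 tested auxiliary calcium channel subunits, which carry the pore to the membrane and tune its gating, 1 was called in shUCHL1 and 0 in shHSPA8 (edgeR; 2 in shHSPA8 at an unadjusted p under 0.05, and 0 by DESeq2). CACNB4, a beta subunit, measured 1.39 and 2.33 CPM in shCON, 6.23 and 4.74 CPM in shUCHL1 and 3.41 and 3.69 CPM in shHSPA8. It was 2.93-fold higher (log2 fold change 1.55, SE 0.27, edgeR adjusted p = 0.0101) in shUCHL1, and the call was lost without shUCHL1 replicate 1 (adjusted p = 0.0887). Its value in shHSPA8 did not pass (log2 fold change 0.93, SE 0.29, edgeR adjusted p = 0.0758) and passed without shCON replicate 2 (adjusted p = 0.0294), and its fractional counts may be shared with other genes. CACNA2D1, the most abundant of these subunits, measured 68.1 and 40.6 CPM in shCON, 65.9 and 61.7 CPM in shUCHL1 and 55.8 and 80.3 CPM in shHSPA8. Its shCON libraries differed by more than any pair of line means, and no call was made (edgeR adjusted p = 0.605 in shUCHL1 and 0.456 in shHSPA8).

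The TRPC channels open downstream of receptors that activate phospholipase C. TRPC4, a receptor-operated cation channel, measured 75.5 and 64.6 CPM in shCON, 20.2 and 19.5 CPM in shUCHL1 and 30.3 and 34.4 CPM in shHSPA8. Both knockdown lines lay below shCON without overlap, shUCHL1 the further. TRPC4 was 3.53-fold lower (log2 fold change -1.82, SE 0.12, edgeR adjusted p = 3.02e-04) in shUCHL1 and 2.17-fold lower (log2 fold change -1.12, SE 0.12, edgeR adjusted p = 0.00121) in shHSPA8, and both calls held in each alternative. TRPC1 was not called (log2 fold change 0.09 in shUCHL1 and -0.22 in shHSPA8, edgeR adjusted p = 0.807 and 0.517).

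In the TRPM family, 3 of 5 tested genes rose and 1 fell in shHSPA8, and 1 rose and 1 fell in shUCHL1. Over all genes tested, 8.66% rose and 6.02% fell in shHSPA8, and 8.54% rose and 7.15% fell in shUCHL1. TRPM4, a calcium-activated channel for sodium and potassium that depolarises the cell, measured 17.2 and 20.6 CPM in shCON, 8.06 and 8.39 CPM in shUCHL1 and 11.2 and 11.3 CPM in shHSPA8. Its level was 2.30-fold lower (log2 fold change -1.20, SE 0.14, edgeR adjusted p = 0.00214) in shUCHL1 and 1.68-fold lower (log2 fold change -0.75, SE 0.14, edgeR adjusted p = 0.0117) in shHSPA8, the latter call lost without shHSPA8 replicate 1 or 2 (adjusted p = 0.0666 and 0.0641). TRPM3, a channel opened by heat and steroids, measured 0.950 and 0.918 CPM in shCON, 4.28 and 3.30 CPM in shUCHL1 and 2.15 and 2.84 CPM in shHSPA8. It was 4.03-fold higher (log2 fold change 2.01, SE 0.27, edgeR adjusted p = 0.00386) in shUCHL1 and 2.66-fold higher (log2 fold change 1.41, SE 0.29, edgeR adjusted p = 0.0192) in shHSPA8, the latter call lost without shCON replicate 1 (adjusted p = 0.0517) and without shHSPA8 replicate 2 (adjusted p = 0.107). For both genes all 4 knockdown libraries lay on the same side of shCON.

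TRPM2, opened by ADP-ribose during oxidative stress, measured 5.95 and 6.73 CPM in shCON, 5.93 and 7.91 CPM in shUCHL1 and 11.4 and 12.5 CPM in shHSPA8. Both shHSPA8 libraries lay above the other 4, and TRPM2 there was 1.89-fold higher (log2 fold change 0.92, SE 0.18, edgeR adjusted p = 0.0146), a call lost without shHSPA8 replicate 2 (adjusted p = 0.0759). TRPM6 and TRPM7 join a magnesium-permeable channel to a kinase in 1 protein. TRPM6 measured 0.443 and 0.490 CPM in shCON, 0.977 and 0.899 CPM in shUCHL1 and 1.39 and 2.13 CPM in shHSPA8. With 7 and 8 counts in shCON, under the minimum of 10, it passed the filter only through the knockdown lines. The TRPM6 level was 3.72-fold higher (log2 fold change 1.90, SE 0.35, edgeR adjusted p = 0.0128) in shHSPA8, a call lost without shHSPA8 replicate 2 (adjusted p = 0.0797). In shUCHL1 its log2 fold change was 1.00 (SE 0.39, edgeR adjusted p = 0.143). TRPM7, much the more abundant of the pair, measured 90.2 and 62.7 CPM in shCON, 102 and 98.0 CPM in shUCHL1 and 68.4 and 88.1 CPM in shHSPA8 and was not called (edgeR adjusted p = 0.222 in shUCHL1 and 0.931 in shHSPA8), though without shCON replicate 1 it passed in shUCHL1 (adjusted p = 0.0287). Of the TRPV channels, TRPV2 and the osmosensitive TRPV4 were tested, and 0 were called by edgeR or DESeq2 in either line, with 2 in shUCHL1 and 0 in shHSPA8 at an unadjusted p under 0.05. TRPV4 gave a log2 fold change of 0.68 in shUCHL1 (edgeR adjusted p = 0.0600), and TRPV2 gave -0.26 (edgeR adjusted p = 0.150, or 0.0343 without shCON replicate 1).

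**Figure D4:**
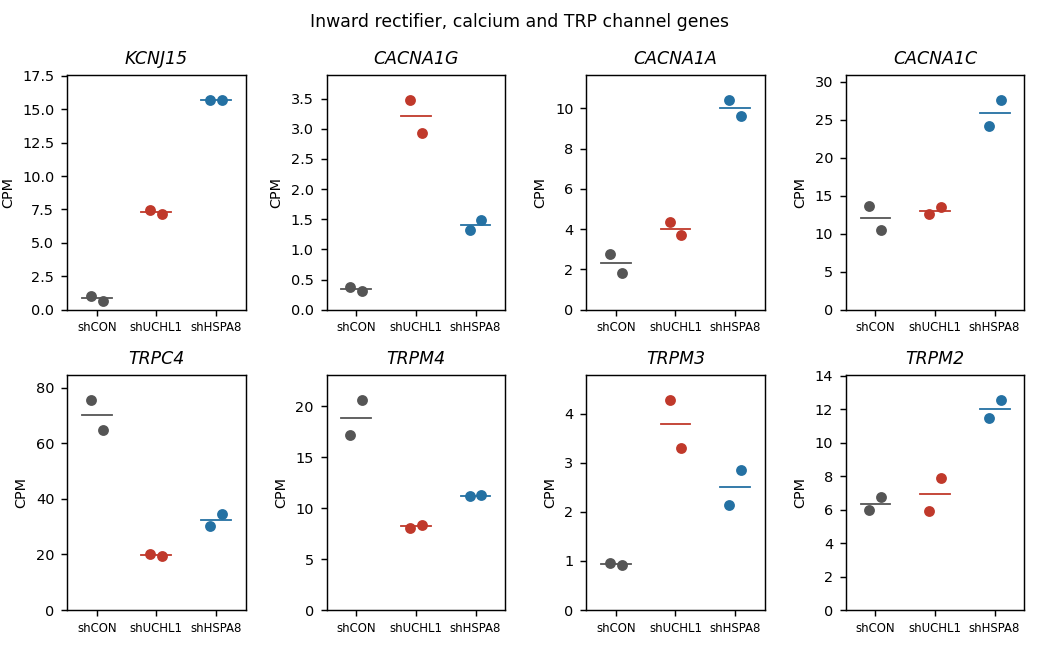
CPM of KCNJ15 and of calcium channel and TRP channel genes in each library, with 2 points per line and a bar at their mean. TRPC4 and TRPM4 are lower in both knockdown lines, KCNJ15, CACNA1G and TRPM3 are higher in both, and CACNA1C and TRPM2 stand apart in shHSPA8.

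Of 10 tested chloride and lipid movers, 1 was called in each knockdown line, beside 15.7% of all genes in shUCHL1 and 14.7% in shHSPA8. edgeR called 0 of the 5 tested CLC genes in either line, as did DESeq2, and at an unadjusted p under 0.05 there were 0 in shUCHL1 and 1 in shHSPA8 (CLCN3). CLCN7, the lysosomal chloride-proton exchanger and the highest of them at 9.82 FPKM, gave log2 fold changes of 0.18 and 0.24 (edgeR adjusted p = 0.452 and 0.298), and the summed CLC level was 20.5 and 20.9 FPKM in shCON, 23.6 and 23.7 FPKM in shUCHL1 and 21.8 and 21.7 FPKM in shHSPA8. Of 5 tested anoctamins, ANO8, which tethers the endoplasmic reticulum to the plasma membrane, measured 24.1 and 27.7 CPM in shCON, 17.0 and 17.6 CPM in shUCHL1 and 30.7 and 31.4 CPM in shHSPA8. The level of ANO8 was 1.50-fold lower (log2 fold change -0.58, SE 0.12, edgeR adjusted p = 0.0162) in shUCHL1, a call lost without shUCHL1 replicate 1 or 2 (adjusted p = 0.161 and 0.128). ANO1, the calcium-activated chloride channel of epithelia and smooth muscle, measured 6.27 and 6.67 CPM in shCON, 7.33 and 8.75 CPM in shUCHL1 and 10.2 and 10.3 CPM in shHSPA8. It was 1.58-fold higher (log2 fold change 0.66, SE 0.15, edgeR adjusted p = 0.0259) in shHSPA8, and that call was lost without shCON replicate 1 (adjusted p = 0.0652), without shUCHL1 replicate 1 or 2 (adjusted p = 0.0644 and 0.0642), without shHSPA8 replicate 1 or 2 (adjusted p = 0.101 and 0.108), with DESeq2 (adjusted p = 0.0631) and in a fit of only the 4 libraries compared (adjusted p = 0.0632). The abundant ANO10 and the lipid scramblase ANO6 were not called (log2 fold change -0.13 and 0.07 in shUCHL1, 0.02 and -0.01 in shHSPA8).

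PANX1, the main ATP release channel of the pannexin family, was the channel gene with the largest fall in shUCHL1 among those above a few counts. It measured 12.9 and 9.24 CPM in shCON, 1.16 and 1.32 CPM in shUCHL1 and 9.17 and 11.8 CPM in shHSPA8. The shUCHL1 libraries lay far below all others, and shHSPA8 overlapped shCON. PANX1 was 8.85-fold lower (log2 fold change -3.15, SE 0.27, edgeR adjusted p = 6.41e-04) in shUCHL1, and its value in shHSPA8 did not pass (log2 fold change -0.07, SE 0.20, edgeR adjusted p = 0.853). The knockdown lines themselves differed, PANX1 being 8.41-fold lower (log2 fold change -3.07, SE 0.27, edgeR adjusted p = 0.00113) in shUCHL1 than in shHSPA8. Both calls held in each of the 13 alternatives. In the authors' deposited table the log2 ratio of shUCHL1 to shCON for PANX1 was -3.18, and that of shHSPA8 to shCON was -0.08. PANX2, a pannexin found mainly in internal membranes, measured 9.43 and 12.9 CPM in shCON, 11.5 and 11.2 CPM in shUCHL1 and 12.3 and 10.5 CPM in shHSPA8 and overlapped in all 3 lines (log2 fold change 0.02, SE 0.18, edgeR adjusted p = 0.958 in shUCHL1). Per length, the ratio of PANX1 to PANX2 was 0.625 and 0.322 in shCON, 0.0480 and 0.0497 in shUCHL1 and 0.329 and 0.473 in shHSPA8. PANX3, a pannexin of bone and cartilage, had 1 count in all, in shHSPA8 replicate 1.

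GJA1 also fell with UCHL1 knocked down. It measured 594 and 482 CPM in shCON, 324 and 307 CPM in shUCHL1 and 586 and 654 CPM in shHSPA8. Both shUCHL1 libraries lay below the other 4, and shHSPA8 overlapped shCON. GJA1 was 1.70-fold lower (log2 fold change -0.77, SE 0.12, edgeR adjusted p = 0.00617) in shUCHL1, a call lost without shUCHL1 replicate 2 (adjusted p = 0.0635). In shHSPA8 the value did not pass (log2 fold change 0.20, SE 0.12, edgeR adjusted p = 0.300). Against shHSPA8, GJA1 in shUCHL1 was 1.96-fold lower (log2 fold change -0.97, SE 0.12, edgeR adjusted p = 0.00340), and that call held in each alternative. GJA1 accounted for 42.2 and 36.9% in shCON, 28.8 and 27.7% in shUCHL1 and 40.1 and 42.5% in shHSPA8 of the summed FPKM of the 141 genes, and for 94.4 and 94.3% in shCON, 89.4 and 89.3% in shUCHL1 and 94.8 and 94.8% in shHSPA8 of that of the connexins. edgeR called 0 connexins in shHSPA8, as did DESeq2, with 0 at an unadjusted p under 0.05, and GJA1 alone in shUCHL1. GJC1, a connexin of vascular and conducting tissue and the next in level at 11.2 FPKM, measured 66.7 and 52.5 CPM in shCON, 69.0 and 64.2 CPM in shUCHL1 and 60.5 and 68.6 CPM in shHSPA8 (log2 fold change 0.16 in shUCHL1 and 0.12 in shHSPA8, edgeR adjusted p = 0.492 and 0.634). GJA5 and GJA9 were at means of 0.127 and 0.232 FPKM, and 8 of the 13 connexins were not tested. Markers of Sertoli cells, which use GJA1 in the tubule, are set beside it: of 11 listed, 10 had values and 7 were tested, 4 lower in shUCHL1 and 3 lower in shHSPA8, with sums of 309 and 276 CPM in shCON, 243 and 239 CPM in shUCHL1 and 199 and 246 CPM in shHSPA8. Their part in the GJA1 result was not tested.

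**Figure D5:**
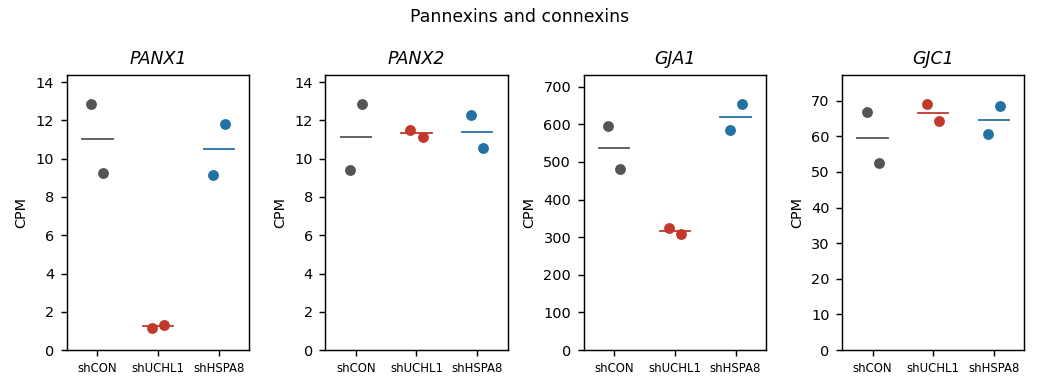
CPM of the pannexins PANX1 and PANX2 and the connexins GJA1 and GJC1 in each library, with 2 points per line and a bar at their mean. PANX1 and GJA1 are lowest in both shUCHL1 libraries, and the lines overlap for PANX2 and GJC1.

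Compared with each other, the knockdown lines differed in 19 of 62 channel genes, 30.6% beside 14.6% of all genes tested, with 6 higher (6.20% of all genes) and 13 lower (8.35%) in shUCHL1 than in shHSPA8. DESeq2 gave 14, with 2 higher and 12 lower. The calls for KCNMA1, KCNMB1, PANX1, GJA1 and KCNA5 held in each alternative, and KCNA5 in shUCHL1 was 5.08-fold higher (log2 fold change 2.35, SE 0.31, edgeR adjusted p = 0.00476). The other 14 calls were lost in at least 1 alternative, and the count was 6 without shUCHL1 replicate 1, 5 without shUCHL1 replicate 2, 11 without shHSPA8 replicate 1 and 12 without shHSPA8 replicate 2. Genes with less RNA in shUCHL1 were CACNA1A (log2 fold change -1.32, SE 0.20, edgeR adjusted p = 0.00704), CACNA1C (log2 fold change -0.99, SE 0.15, edgeR adjusted p = 0.00804), KCNJ15 (log2 fold change -1.10, SE 0.15, edgeR adjusted p = 0.00453) and ANO8 (log2 fold change -0.84, SE 0.11, edgeR adjusted p = 0.00503). The calls for CACNA1A, CACNA1C, KCNJ15 and ANO8 were lost without shUCHL1 replicate 1 or 2 (adjusted p = 0.0598 and 0.0801, 0.0901 and 0.0663, 0.0634 and 0.0649, 0.0787 and 0.0659, in that order).

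KCNJ5 was 3.19-fold lower (log2 fold change -1.67, SE 0.26, edgeR adjusted p = 0.00775) in shUCHL1 than in shHSPA8, a call lost without shUCHL1 replicate 1 or 2 (adjusted p = 0.0722 and 0.0913) and without shHSPA8 replicate 1 (adjusted p = 0.0503). TRPC4, lower than shCON in both lines, was the lower in shUCHL1 (log2 fold change -0.70, SE 0.12, edgeR adjusted p = 0.0126), a call lost without shUCHL1 replicate 1 or 2 (adjusted p = 0.106 and 0.120) and without shHSPA8 replicate 2 (adjusted p = 0.0683). CACNA1G, higher than shCON in both lines, was higher in shUCHL1 (log2 fold change 1.19, SE 0.23, edgeR adjusted p = 0.0164), a call lost without shUCHL1 replicate 1 or 2 (adjusted p = 0.159 and 0.0874), without shHSPA8 replicate 1 or 2 (adjusted p = 0.116 and 0.0700) and with DESeq2 (adjusted p = 0.0991). Outside the rule for named genes, and chosen after their values were seen, KCNMB4 was lower in shUCHL1 (log2 fold change -0.63, SE 0.13, edgeR adjusted p = 0.0231), KCNN3 higher (log2 fold change 2.10, SE 0.45, edgeR adjusted p = 0.0233) and KCNK6 lower (log2 fold change -0.35, SE 0.09, edgeR adjusted p = 0.0419). With 4 and 7 counts in shCON and 3 and 3 in shHSPA8, KCNN3 passed the filter only through shUCHL1, where it had 13 and 15. The KCNMB4 call was lost without shUCHL1 replicate 1 or 2 (adjusted p = 0.200 and 0.173) and without shHSPA8 replicate 1 or 2 (adjusted p = 0.139 and 0.0583). The KCNN3 call was lost without shUCHL1 replicate 1 or 2 (adjusted p = 0.129 and 0.162), without shHSPA8 replicate 1 or 2 (adjusted p = 0.141 and 0.110) and with DESeq2 (adjusted p = 0.157). The KCNK6 call was lost without shUCHL1 replicate 1 or 2 (adjusted p = 0.267 and 0.304), without shHSPA8 replicate 1 or 2 (adjusted p = 0.175 and 0.150), with library size scaling (adjusted p = 0.0963), with DESeq2 (adjusted p = 0.0698) and with no filter on low counts (adjusted p = 0.0520).

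A list of 152 related genes (pumps, exchangers, other channels, purine receptors, calcium stores and junction partners) had 131 genes with values and 90 tested. In shUCHL1, 8 were higher and 7 lower, 16.7% of those tested, and in shHSPA8, 12 were higher and 7 lower, 21.1%, beside the shares of all genes given above. ATP1B1, SLC8A1, NT5E and ENTPD1, described next, are all among the 7 lower in shUCHL1, and most of the 8 higher there are not described. ATP1B1, the beta subunit of the sodium pump, was 1.66-fold lower (log2 fold change -0.73, SE 0.08, edgeR adjusted p = 0.00194) in shUCHL1, and SLC8A1, the sodium-calcium exchanger, was 2.39-fold lower (log2 fold change -1.26, SE 0.16, edgeR adjusted p = 0.00324) there. SLC8A1 was also called lower in shHSPA8 (log2 fold change -0.74, edgeR adjusted p = 0.0232). That call was not kept without shHSPA8 replicate 1 (log2 fold change -0.58) or with the replicate number as a block. NT5E, the surface enzyme that turns AMP into adenosine, measured 362 and 316 CPM in shCON, 209 and 208 CPM in shUCHL1 and 287 and 306 CPM in shHSPA8. The NT5E level was 1.62-fold lower (log2 fold change -0.70, SE 0.09, edgeR adjusted p = 0.00365) in shUCHL1, a call lost without shUCHL1 replicate 1 or 2 (adjusted p = 0.0502 and 0.0507). ENTPD1, the surface enzyme that degrades ATP and ADP, was chosen after its value was seen. It measured 89.1 and 69.9 CPM in shCON, 39.8 and 36.1 CPM in shUCHL1 and 46.0 and 61.5 CPM in shHSPA8. The ENTPD1 level was 2.09-fold lower (log2 fold change -1.07, SE 0.17, edgeR adjusted p = 0.00803) in shUCHL1, a call lost without shUCHL1 replicate 2 (adjusted p = 0.0696).

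STAC, an adaptor that binds L-type calcium channels, measured 9.50 and 11.3 CPM in shCON, 14.4 and 13.8 CPM in shUCHL1 and 27.5 and 25.9 CPM in shHSPA8. The STAC level was 2.57-fold higher (log2 fold change 1.36, SE 0.13, edgeR adjusted p = 7.27e-04) in shHSPA8. TPCN1, an endolysosomal channel, was 1.77-fold higher (log2 fold change 0.82, SE 0.10, edgeR adjusted p = 0.00186) in the same line, and TRPA1, the irritant receptor, was 2.22-fold higher (log2 fold change 1.15, SE 0.15, edgeR adjusted p = 0.00265). TRPA1 was also called higher in shUCHL1 (log2 fold change 0.73, edgeR adjusted p = 0.0170). That call was not kept without shUCHL1 replicate 1 or 2 (log2 fold change 0.65 and 0.78). AQP1, a water channel, measured 4.81 and 5.88 CPM in shCON, 2.38 and 3.66 CPM in shUCHL1 and 1.07 and 0.905 CPM in shHSPA8. The AQP1 level was 5.36-fold lower (log2 fold change -2.42, SE 0.29, edgeR adjusted p = 0.00204) in shHSPA8. CAV1, the caveolae protein, was 1.62-fold lower (log2 fold change -0.70, SE 0.10, edgeR adjusted p = 0.00348) there. The 5 calls in shHSPA8 for STAC, TPCN1, TRPA1, AQP1 and CAV1 held in each alternative.

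Markers of further cell types were low or mixed. Endothelial markers summed to 2.79 and 3.06 CPM in shCON, 5.13 and 3.96 CPM in shUCHL1 and 3.98 and 4.01 CPM in shHSPA8 over the 6 of 7 with values. Of 7 leukocyte markers, 5 had values, PTPRC did not exceed 0.19 CPM and ITGAM had 1 count in all. The 7 Leydig markers had 2 with values, STAR at 1.01 and 1.41 CPM in shCON, 0.855 and 1.44 CPM in shUCHL1 and 1.45 and 1.03 CPM in shHSPA8 and HSD17B3 at 0 CPM in 5 libraries. Epithelial markers, all 5 with values, summed to 23.6 and 26.3 CPM in shCON, 5.19 and 4.98 CPM in shUCHL1 and 8.66 and 7.76 CPM in shHSPA8: KRT8 and KRT18 were lower in both knockdown lines, and CDH1 and EPCAM were higher in shUCHL1. Germ cell markers summed to 713 and 751 CPM in shCON, 314 and 315 CPM in shUCHL1 and 743 and 707 CPM in shHSPA8, which includes the targeted UCHL1. The part of any of these in the channel results was not tested.

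The libraries of a line differed from each other with transcript length. The channel transcripts whose length could be estimated were long, with a median of 3928 bases (from counts and FPKM) against 2477 over all genes tested. Lengths were estimated only from libraries with at least 1 FPKM of the gene. Weakly expressed genes, among them CACNA1G, TRPM3 and TRPM6, therefore have none. In shCON the median log2 difference of replicate 1 minus replicate 2 was -0.19 in the quartile with the shortest transcripts and 0.24 in that with the longest, in shHSPA8 it was 0.13 and -0.18, and in shUCHL1 -0.04 and 0.05. For the channel genes the median size of this gap was 0.19, 0.10 and 0.17 in shCON, shUCHL1 and shHSPA8. Over all genes tested it was 0.21, 0.08 and 0.15. The signed medians of the channel genes were -0.04, 0.04 and -0.01, in the same order. The part of length in the channel calls was not tested.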

How the data were processed

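Messenger RNA was sequenced in 6 libraries of the goat cell line mGSCs-I-SB, grouped into 3 lines by their titles. Per the labels' protocols, 1.3 ug of total RNA entered a SMARTER kit, and Trimmomatic 0.36 is named in the submitters' processing notes. No source used here names the aligner, counting tool, genome build or strand setting, so no coordinates are given and genes that overlap on opposite strands may share reads. The authors deposited 1 table of 33229 entries, 16630 of them blank. Per the file headers it holds an FPKM value and a read count for each gene and library, with the authors' mean count per line, log2 ratios of the lines and a p-value for each ratio. The test behind those p-values is not given in the sources used here. Since 1014 to 1117 genes per library had fractional counts, the deposited counts were treated like expected counts, that is, estimates, and rounded. Of the genes described, KCNMB3, KCND3, CACNB4 and GJA5 had fractional counts.

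Counts were tested with the quasi-likelihood F test of edgeR 4.0.16 in R 4.3.3 (filterByExpr with a minimum count of 10 and a minimum total of 15, TMM scaling, group as the only term, all 6 libraries), with Benjamini-Hochberg adjustment over 12665 genes and a threshold of 0.05. For each log2 fold change the SE is its absolute value over the square root of F. All 141 gene IDs were found under the same symbol in the RefSeq table of assembly ARS1.2, used only for names and neighbours. The genes, lists and tests were chosen with earlier results of these data known. Named genes are those called against shCON, up to 10 called between the knockdown lines, the most abundant gene of each subfamily, and up to 4 called related genes per comparison by lowest p. Some genes meeting these rules are not reported here. Alternatives were library size scaling, DESeq2 1.42.0, 2 other filters, only the 4 libraries compared, the replicate number as a block, and leaving out each library.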

Additional observations from a re-analysis of the deposited data

How the results depend on the processing

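Among the named genes, no fold change that passed the threshold, in the main fit or in the alternative, reversed its direction. Reversals of values called in neither fit were not counted. Leaving out each library in turn gave 10 to 20 channel genes called in shUCHL1 (19 with all libraries), 9 to 17 in shHSPA8 (16) and 5 to 23 between the knockdown lines (19), and the single library left in a line is then assumed to vary like the other lines. Over library size scaling, DESeq2, the other filters and the fit of only the 4 libraries compared, the counts ran from 17 to 21, 14 to 16 and 14 to 22. With the replicate number as a block, the counts were 19, 14 and 14. The calls not made under that block include KCNH2 (adjusted p = 0.0944) and ANO1 (0.0615) in shHSPA8, and, between the knockdown lines, KCNK6 (0.126), KCNMB4 (0.0690), KCNC4 (0.0563), KCNJ14 (0.0552) and KCNN3 (0.0516). The replicate numbers are not said to pair the libraries. Over 12665 genes the difference of replicate 1 and replicate 2 correlated at 0.34 between shCON and shUCHL1. The correlation was -0.68 between shCON and shHSPA8 and -0.34 between shUCHL1 and shHSPA8. These values cannot decide whether libraries were paired, since a pairing in another order could also give them. With the shHSPA8 numbers crossed in the block, an alternative chosen after seeing the data, the counts were 27, 24 and 27. Of the called channel genes, 9 of the 19 for shUCHL1, 8 of the 16 for shHSPA8 and 5 of the 19 called between the knockdown lines held in every alternative. Low counts limit these results: 79 of 141 genes could not be tested.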

Other observations

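Among the 79 untested genes, 13 had more than 20 counts over the 6 libraries, and with no filter on low counts edgeR called 0 of the 79. KCNE4, an accessory subunit that damps some voltage-gated potassium channels, had 2 and 2 counts in shCON, 2 and 2 in shUCHL1 and 15 and 7 in shHSPA8. This gene was chosen after its values were seen and was not tested.

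In the pathway annotation that the authors deposited beside the counts, 5 pathways hold at least 7 tested channel genes each, and they share members. The calls below stand beside 15.7% of all genes in shUCHL1 and 14.7% in shHSPA8. Of 11 genes in oxytocin signaling, CACNB4, KCNJ14 and KCNJ2 rose and KCNJ5 fell in shUCHL1, and TRPM2, CACNA1C and KCNJ2 rose in shHSPA8. Of 8 in MAPK signaling, CACNB4 and CACNA1G rose in shUCHL1, and CACNA1A, CACNA1C and CACNA1G rose in shHSPA8. Of 7 in arrhythmogenic right ventricular cardiomyopathy, CACNB4 rose and GJA1 fell in shUCHL1, and CACNA1C rose in shHSPA8. Of 7 in GnRH secretion, CACNA1G rose and TRPC4 fell in both lines, KCNJ5 fell in shUCHL1 and CACNA1C rose in shHSPA8. Of 7 in insulin secretion, KCNMA1 rose and TRPM4 fell in both lines, KCNMB1 fell in shUCHL1 and rose in shHSPA8, and CACNA1C rose in shHSPA8. No test of these groups was made. Of 13 pairs of channel genes that are direct neighbours in the RefSeq table, 0 had both genes tested, so neighbours that move together were not analysed here.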
